A study of Mus musculus with 8 samples.

Results

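The HSP, DNAJ and CCT genes of mouse CD4 T cells, which encode most of the cell's protein-folding chaperones, were followed from naive cells to Th17 cells. Every gene whose symbol starts with Hsp or Dnaj, or with Cct and a digit, and Tcp1 were taken, which gave 80 of the 16308 genes in the count table. All cells were C57BL/6 CD4 T cells read as ribosome-depleted RNA, 2 libraries a group, described by the submitters as independent biological replicates. The naive group was untreated. The Th17 group, which holds the interleukin-17 producing helper cells, had been kept for 72 h with IL-6 at 20 ng/mL and TGF-β at 0.1 ng/mL on antibodies to CD28 (1 µg/mL) and to CD3ε (0.25 µg/mL). Elsewhere the labels give TGF-β as a range and name a shorter culture too. A-to-I edited sites, adenosines read as guanosine after deamination, were listed for these 4 libraries, and also for further Th17 libraries of the same treatment, 2 of them wild type and 2 DDX5-deficient (DDX5∆T). The labels name no promoter or Cre line behind the loss of the helicase DDX5. The counts cover the naive and Th17 libraries, both wild type per the series' design text. The headers of all 4 count columns carry the word Malat1 beside WT, which the labels do not explain.

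HSP70 proteins bind short hydrophobic stretches of unfolded proteins and let go of them in a cycle driven by ATP. The DNAJ proteins, also called HSP40, bring clients to HSP70 and trigger its ATPase through their J domain, and the HSP110 proteins exchange its nucleotide. HSP90 finishes the folding of kinases and receptors, HSP60 with its lid HSP10 folds proteins inside mitochondria, and CCT, a ring of different subunits, folds actin and tubulin. Many of these genes are targets of the heat shock factor HSF1 in the cytosol, or of the unfolded protein response in the endoplasmic reticulum (ER). T cells carry them at rest, and activated T cells are known for fast growth and division.

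The naive libraries held 20426728 and 16154625 reads on genes and the Th17 libraries 26624436 and 11768994. The chaperone genes took 0.902% and 1.04% of them in naive cells and 2.11% and 1.94% in Th17 cells, so their share was higher in both Th17 libraries. HSP90 genes accounted for 0.19% and 0.231% of naive and 0.705% and 0.624% of Th17 reads, and CCT genes for 0.198% and 0.235% against 0.461% and 0.402%. DNAJC genes moved less, from 0.166% and 0.157% to 0.184% and 0.176%. In bulk RNA, fewer cells of a type and less RNA per cell cannot be told apart.

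Of the 80 genes, 73 had enough reads to be tested, and 27 of these were higher and 11 lower in Th17 cells by edgeR's quasi-likelihood test at a Benjamini-Hochberg adjusted p under 0.05. Over all 11989 genes tested, 34.3% were higher and 30.7% lower. The chaperone shares were 37% higher, near the background, and 15.1% lower, and the median log2 fold change was 0.3 against 0.06 over all genes. Leaving out naive library 1 gave 17 members higher and 6 lower, and leaving out naive library 2 gave 18 and 5. With library totals alone in place of TMM factors, the median log2 fold change of all genes moved up by 0.299. The calls then became 44 higher and 7 lower among the members, and the share of higher genes among all called went from 52.8% to 66.4%. The groups did not overlap in 58 of the 73 tested members (79.5%), 20 of them not called, and over all genes tested they did not overlap in 85%, so this count is no result about the members. Exons of 28 members lie over exons of a gene on the opposite strand, and whether the counting used strand is not given in the sources used here, so such reads could be shared. Of 79 members searched, 19 had a stretch of at least 300 bases with 95% identity or more in another annotated gene.

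Members outside the DNAJ family and DNAJ genes had different counts. Among the 32 tested members outside the DNAJ family, 18 were higher (56.2%) and 2 lower (6.25%), with a median log2 fold change of 0.79. These 32 include 3 genes named like an HSP but of other function, 1 of them higher (Hspg2) and 1 lower (Hspbap1). Over all genes tested, 34.3% were higher and 30.7% lower. Among the 41 tested DNAJ genes, 9 were higher and 9 lower, 22% each way and under both shares of all genes, with a median of 0.13. Dnajc22 and Dnajb3 among the 9 higher, and Hspa2 and Hspg2 among the 18, entered the test only through Th17 reads. They count among the 27 higher members too, and the shares of all genes come from the same filter. In the ER and the mitochondrion, all 6 tested members outside the DNAJ family were higher, with medians of 1.92 for the 3 ER genes and 1.7 for the 3 mitochondrial genes. Of the 10 DNAJ genes of the ER, 3 were higher (30%) and 2 lower (20%) with a median of 0.14. Of the 5 mitochondrial DNAJ genes, 0 were called by edgeR with TMM factors and every library, or by DESeq2. Their lowest unadjusted p-values by edgeR were 0.05 (Dnajc19, log2 -0.41) and 0.053 (Dnajc15, log2 0.32). Without Th17 library 2, the log2 fold change of Dnajc19 was -0.54. With library totals alone, under which all genes shifted up, edgeR called Dnaja3, Dnajc11 and Dnajc15 higher (adjusted p = 0.021, 0.029 and 0.0058). With DESeq2 size factors, edgeR also called Dnajc15, at an adjusted p that rounds to 0.05. In the cytosol and nucleus 11 of 22 others were higher (50%) and 1 lower (4.55%), against 4 and 4 of 18 DNAJ genes (22.2% each way). These shares were not tested against each other or against those of all genes.

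**Figure D1:**
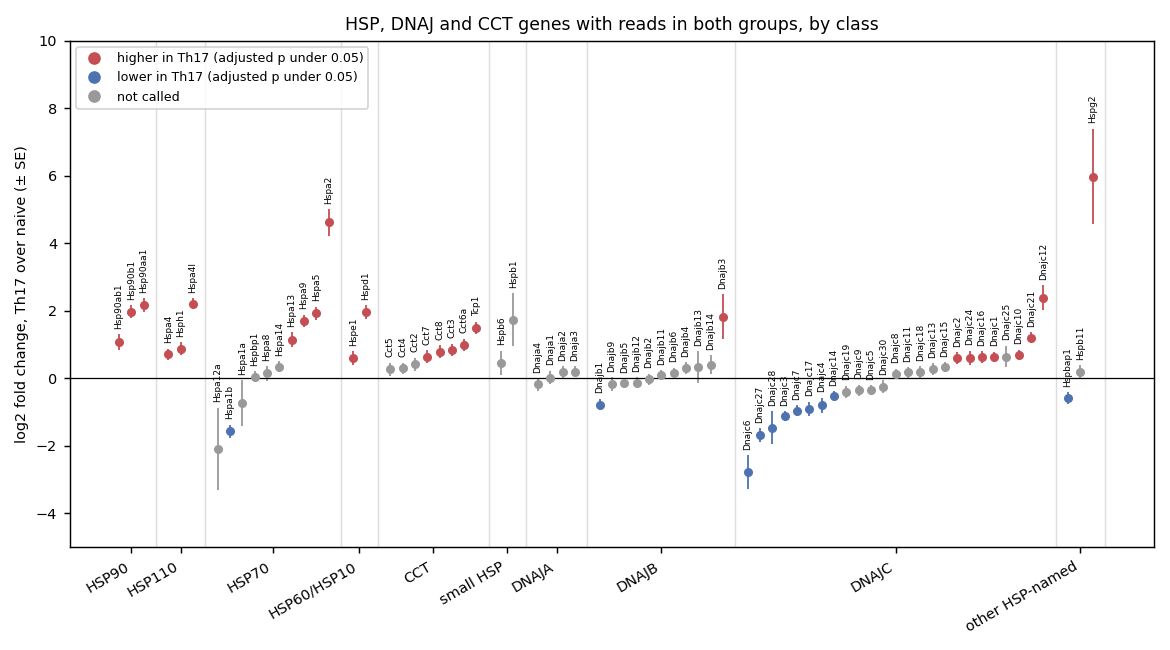
Log2 fold change from naive to Th17 cells, with its standard error, for the tested HSP, DNAJ and CCT genes, by class, apart from Dnajc22, which had no naive read, and a gene not reported here. All HSP90 and HSP110 genes lie above 0 and are called higher, while DNAJC genes spread from -2.79 (Dnajc6) to 2.39 (Dnajc12).

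Both cytosolic HSP90 genes rose. Hsp90aa1, the stress-inducible form, lay at 221 and 278 CPM (counts per library brought to a common scale by TMM factors) in naive cells and at 1240.1 and 1005 CPM in Th17 cells, 4.50-fold higher (log2 2.17, SE 0.21, adjusted p = 2.9e-05). Hsp90ab1, the constitutive form, went from 1567 and 2046 to 4163 and 3408 CPM, 2.10-fold higher (log2 1.07, SE 0.23, adjusted p = 0.0033). For both genes each Th17 library stood above each naive library, though groups did not overlap in 85% of all genes tested. Per kilobase of exon, Hsp90ab1 remained the more abundant of the pair, at 1388 and 1136 CPM per kb against 315 and 256 for Hsp90aa1 in Th17 cells. The share of Hsp90aa1 in their summed level moved from 9.56 ± 0.237% to 18.4 ± 0.111% (SD, n = 2), a difference larger than the spread between libraries. Hsp90aa1 has 3 pseudogenes with at least 95% identity over 300 bases or more, 99.5% over 2255 bases for the longest, which could take or lend reads.

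The cytosolic HSP70 genes did not move together. Hspa8, the constitutive HSC70, lay at 1495 and 2003 CPM in naive and 1977 and 1888 CPM in Th17 cells, with overlapping groups and a log2 fold change of 0.14 (SE 0.21, adjusted p = 0.57). It has near-identical stretches in 6 other genes, 5 of them pseudogenes. Hspa1b, an inducible HSP70, lay at 63.1 and 84.0 CPM in naive and 27.4 and 22.1 CPM in Th17 cells, 2.96-fold lower (log2 -1.56, SE 0.19, adjusted p = 0.00013). Its neighbour Hspa1a, on chromosome 17 from 34969190 to 34972156 with exons over Gm20481, stood at 11.8 and 34.0 against 16.9 and 10.4 CPM, with overlapping groups and no call (log2 -0.73, SE 0.68, adjusted p = 0.41). Its log2 fold change was -1.36 without naive library 1 and 0.13 without naive library 2. The transcripts of both are 99.2% identical over 2201 bases, so reads may pass from the count of either to the other. Their summed level was 74.9 and 118 CPM in naive and 44.3 and 32.5 CPM in Th17 cells, lower in both Th17 libraries.

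Hspa2, an HSP70 known from the testis, had the largest fold among the HSP70 genes with naive reads. It went from 0.478 and 0.422 CPM to 11.6 and 10.8 CPM, 24.5-fold higher (log2 4.62, SE 0.39, adjusted p = 1.3e-05). With 9 and 6 naive reads it entered the test only through its Th17 reads, so its adjusted p is no separate support. The Th17 level stayed far under that of Hspa8. Hspa14, which acts with the ribosome-bound DNAJ protein Dnajc2, was not called at 68.4 and 71.6 against 96.4 and 80.7 CPM (log2 0.34, SE 0.16, adjusted p = 0.089). Hspa12a, a distant HSP70 relative whose exons lie over those of Eno4, lay at 6.10 and 6.83 CPM in naive cells and at 0.243 and 2.96 CPM in Th17 cells, so the Th17 libraries disagreed by far more than the naive ones. Its log2 fold change was -2.09 (SE 1.21, adjusted p = 0.21), against -1.16 without Th17 library 1 and -4.69 without Th17 library 2. Hspbp1, an exchange factor of HSP70, had 59.3 and 65.1 against 69.0 and 59.3 CPM (log2 0.05, SE 0.16, adjusted p = 0.81).

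All 3 HSP110 genes, the exchange factors that help HSP70 to dissolve aggregates, were higher. Hspa4l had the largest fold, from 19.4 and 17.8 to 93.6 and 78.3 CPM, 4.62-fold (log2 2.21, SE 0.17, adjusted p = 6.6e-06). Hspa4 went from 198 and 192 to 343 and 298 CPM (log2 0.71, SE 0.16, adjusted p = 0.0041). Hsph1 went from 85.1 and 115 to 205 and 161 CPM (log2 0.88, SE 0.20, adjusted p = 0.0044). In none of the 3 did the groups overlap, which was so for 85% of all genes tested. Hspa4 was not called without naive library 2 (log2 0.62, adjusted p = 0.055), nor Hsph1 without naive library 1 (log2 0.63, adjusted p = 0.095).

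The ER folding genes Hspa5 and Hsp90b1 rose by nearly the same factor. Hspa5 encodes BiP, the HSP70 of the ER and a sensor of its folding load, on chromosome 2 from 34771970 to 34777547 (GRCm38, GENCODE M21). It lay at 336 and 394 CPM in naive and 1317 and 1455 CPM in Th17 cells, 3.80-fold higher (log2 1.92, SE 0.19, adjusted p = 3.6e-05). Hsp90b1 encodes GRP94, the ER form of HSP90, on chromosome 10 from 86690209 to 86705509. It went from 270 and 305 to 1106 and 1151 CPM, 3.92-fold higher (log2 1.97, SE 0.18, adjusted p = 2.2e-05), and its exons lie over those of 1810014B01Rik on the other strand. The ratio of Hspa5 to Hsp90b1 per kilobase was 1.21 ± 0.0325 (SD, n = 2) for naive and 1.17 ± 0.0494 for Th17 cells, a difference no larger than the spread between libraries. Hspa13, a small ER-associated HSP70, went from 11.8 and 17.5 to 33.7 and 31.0 CPM (log2 1.15, SE 0.21, adjusted p = 0.0015). Hspa8 outweighed Hspa5 by 4.37 and 4.99 times per kilobase in naive cells, but by 1.48 and 1.28 times in Th17 cells.

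Dnajc3, the ER co-chaperone p58IPK that binds Hspa5 and is known as an inhibitor of the stress kinase PERK, moved the other way. It lay at 208 and 206 CPM in naive and 98.8 and 90.6 CPM in Th17 cells, 2.19-fold lower (log2 -1.13, SE 0.15, adjusted p = 0.0002). The naive libraries were both far above the Th17 libraries. Dnajc3 lies on chromosome 14 from 118937976 to 118981697. All 3 genes share the ER stress element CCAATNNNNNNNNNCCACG in their promoters, the letters known to bind NF-Y with ATF6, searched on both strands from 250 bases before to 50 after each RefSeq start. It was found in 39 of 32851 such windows (0.119%), at 37 of 27025 genes, and at 3 of the 65 members that had a window. The 250 bases before the RefSeq starts (GRCm38.p6) are shown, 5′ to 3′ on the strand of the gene with the element in capitals, because the same letters stood before genes that went in opposite directions: Hspa5 at chr2:34771840-34772089 on the plus strand, Hsp90b1 at chr10:86705445-86705694 on the minus strand and Dnajc3 at chr14:118937682-118937931 on the plus strand.
Hspa5: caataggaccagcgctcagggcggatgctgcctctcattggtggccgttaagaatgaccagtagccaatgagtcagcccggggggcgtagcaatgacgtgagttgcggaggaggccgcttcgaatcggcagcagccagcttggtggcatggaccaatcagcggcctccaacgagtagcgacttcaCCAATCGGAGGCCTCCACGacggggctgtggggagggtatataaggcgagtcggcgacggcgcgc
Hsp90b1: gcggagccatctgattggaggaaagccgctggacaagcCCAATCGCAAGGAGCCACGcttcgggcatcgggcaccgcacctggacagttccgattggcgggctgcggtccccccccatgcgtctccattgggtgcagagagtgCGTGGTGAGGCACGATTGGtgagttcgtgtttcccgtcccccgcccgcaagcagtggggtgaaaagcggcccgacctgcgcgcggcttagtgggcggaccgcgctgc
Dnajc3: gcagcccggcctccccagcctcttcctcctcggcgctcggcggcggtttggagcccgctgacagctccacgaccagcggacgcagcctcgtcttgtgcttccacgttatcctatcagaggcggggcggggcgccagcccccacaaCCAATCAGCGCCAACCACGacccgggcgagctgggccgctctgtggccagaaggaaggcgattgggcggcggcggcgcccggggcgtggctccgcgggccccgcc
The element lay 65 to 47 bases before the start in Hspa5, 105 to 87 in Dnajc3, and 212 to 194 and 107 to 89 in Hsp90b1, where the nearer copy reads on the other strand. A match is a description of letters, not a measured binding site.

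Other DNAJ genes of the ER were split. Dnajc10, the reductase ERdj5 that works with BiP, went from 98.9 and 94.6 to 159.6 and 154 CPM (log2 0.70, SE 0.15, adjusted p = 0.0028). Dnajc1, a membrane DNAJ protein that docks BiP at the translocating ribosome, went from 54.7 and 51.9 to 85.8 and 79.9 CPM (log2 0.64, SE 0.15, adjusted p = 0.0051), and its exons lie over those of Mllt10 on the other strand. Dnajc16, an ER membrane member, went from 30.3 and 23.0 to 41.8 and 40.5 CPM (log2 0.63, SE 0.18, adjusted p = 0.012), and was not called without naive library 2 (log2 0.37, adjusted p = 0.12). In these 3 genes both Th17 libraries stood above both naive libraries, and groups did not overlap in 85% of all genes tested. Dnajb9 and Dnajb11, the soluble partners ERdj4 and ERdj3 that are known targets of the unfolded protein response and are named here after their values were seen, were not called. Dnajb9 lay at 16.2 and 14.4 against 12.5 and 14.9 CPM (log2 -0.17, SE 0.21, adjusted p = 0.49). Dnajb11 lay at 101 and 103 against 113 and 103 CPM (log2 0.09, SE 0.15, adjusted p = 0.62).

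**Figure D2:**
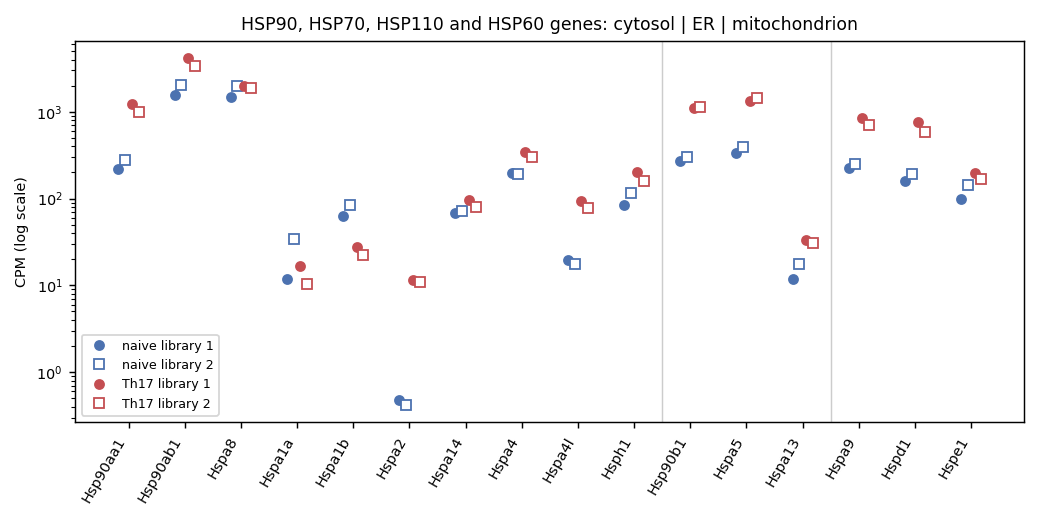
CPM on a log axis in each naive (blue) and Th17 (red) library for the HSP90, HSP70, HSP110 and HSP60/HSP10 genes, ordered by compartment. Hspa5 and Hsp90b1 sit at 1106 CPM or more in both Th17 libraries and at 394 or less in both naive libraries, whereas the Hspa8 points overlap and Hspa1b is lower in Th17 cells.

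The mitochondrial HSP70, HSP60 and HSP10 genes rose as well, while 0 of the 5 mitochondrial DNAJ genes were called by edgeR with TMM factors and every library. Hspa9, the HSP70 mortalin that pulls imported proteins through the inner membrane, went from 226 and 249 to 843 and 700 CPM, 3.25-fold (log2 1.70, SE 0.18, adjusted p = 5.9e-05). Hspd1, which encodes HSP60, went from 161 and 190 to 769 and 592 CPM, 3.88-fold (log2 1.96, SE 0.20, adjusted p = 4e-05). Both were higher in each Th17 library than in either naive library, where 85% of all genes tested had groups without overlap. Hspe1, which encodes the HSP10 lid, went from 97.8 and 144 to 196 and 169 CPM, a smaller rise (log2 0.59, SE 0.21, adjusted p = 0.033). It was not called without naive library 1 (log2 0.30, adjusted p = 0.18), without Th17 library 1 (log2 0.45, adjusted p = 0.087), without a filter on low counts (adjusted p = 0.08) or with a minimum mean count of 10 (adjusted p = 0.077). The pseudogene Hspd1-ps3 has 99% identity to Hspd1. Trap1, the HSP90 of mitochondria, which the symbol rule did not take and which is named after its values were seen, was not called at 123 and 130.4 against 119.7 and 110.2 CPM (log2 -0.14, SE 0.15, adjusted p = 0.43).

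Hspd1 and Hspe1 lie next to each other on opposite strands of chromosome 1, and their first exons overlap in GENCODE M21. RefSeq gives 2 starts for Hspd1, at 55087932 and, beyond the Hspe1 start of 55088148, at 55088243. The 215 bases between 55087932 and the Hspe1 start are shown because they lie before a start of both genes. They are read on the plus strand, towards Hspe1, chr1:55087933-55088147 (GRCm38.p6), with the heat shock element in capitals.
Between Hspd1 and Hspe1: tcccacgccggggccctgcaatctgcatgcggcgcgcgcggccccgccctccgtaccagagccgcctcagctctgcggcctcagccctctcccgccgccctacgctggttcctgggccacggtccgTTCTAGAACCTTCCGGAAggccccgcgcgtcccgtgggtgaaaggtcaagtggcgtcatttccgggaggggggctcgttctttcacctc
The capitals hold 2 overlapping matches to GAANNTTCNNGAA, the letters known to bind HSF1, searched on both strands, 89 to 77 and 84 to 72 bases before the Hspe1 start. Counted from the Hspd1 start at 55087932 they lie 139 to 127 and 144 to 132 bases upstream. The element was found in 198 of the 32851 windows (0.603%) and at 4 of the 65 members with a window, Dnajb6, Hspd1, Hspe1 and Hsph1, in the last of them after the start. Hspd1, Hspe1 and Hsph1 were called higher, and Dnajb6 lay at 82.9 and 94.6 against 105 and 92.8 CPM with no call (log2 0.16, SE 0.16, adjusted p = 0.4). The shorter E-box CACGTG, which binds MYC among others and overlapped no match of the other elements, was found at 7 of the 65 members (10.8%) and at 8.09% of all genes. Per kilobase, the level of Hspd1 divided by that of Hspe1 was 0.919 and 0.735 in naive cells but 2.19 and 1.95 in Th17 cells. With the longest transcript as gene length these ratios were 0.656, 0.524, 1.56 and 1.39, again without overlap.

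**Figure D3:**
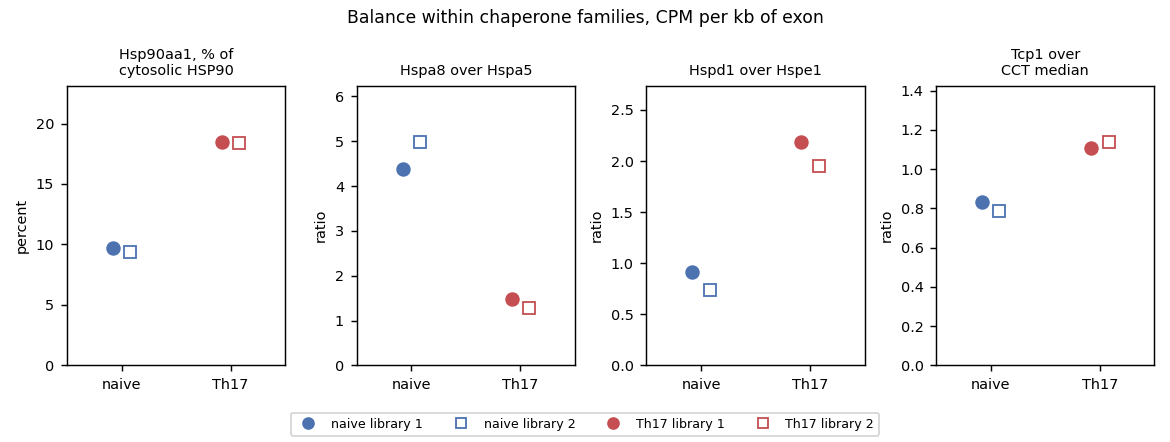
Levels within families by library, from CPM per kb of exon: the percent of Hsp90aa1 in the summed cytosolic HSP90, and the ratios of Hspa8 to Hspa5, Hspd1 to Hspe1 and Tcp1 to the median of the 8 CCT subunits, each axis from 0. The naive and Th17 libraries do not overlap in any panel, and the Hspa8 to Hspa5 ratio runs from 4.99 down to 1.28.

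The 8 subunit genes of the CCT ring had log2 fold changes from 0.26 to 1.49, and 5 of them were called higher (62.5%, against 34.3% of all genes tested). Tcp1, the subunit that gave the complex its other name, had the largest, from 238 and 276 to 771 and 671 CPM, 2.81-fold (log2 1.49, SE 0.18, adjusted p = 0.00012). It lies on chromosome 17 from 12915701 to 12925067, and its exons lie over those of Acat3 and Mrpl18 on the other strand. Cct6a, whose exons lie over those of Psph, went from 185 and 221 to 441 and 363 CPM (log2 0.99, SE 0.18, adjusted p = 0.0013). Cct3 went from 213 and 269 to 457 and 405 CPM (log2 0.84, SE 0.18, adjusted p = 0.0033). These 3 subunits were called under all 10 alternatives to the analysis. Cct8 went from 252 and 310 to 544 and 427 CPM (log2 0.79, SE 0.19, adjusted p = 0.0063) and was not called without naive library 1 (log2 0.60, adjusted p = 0.11) or naive library 2 (log2 0.87, adjusted p = 0.058). Cct7 went from 259 and 336 to 499 and 430 CPM (log2 0.64, SE 0.19, adjusted p = 0.015) and was not called without naive library 1 (log2 0.43, adjusted p = 0.11) or Th17 library 1 (log2 0.50, adjusted p = 0.081). Cct7 and Cct8 also have exons over another gene, Pradc1 and Usp16.

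Cct2, Cct4 and Cct5 did not pass the test. Cct2 lay at 384 and 480 against 635 and 516 CPM (log2 0.41, SE 0.19, adjusted p = 0.091). Cct4 lay at 261 and 330 against 375 and 347 CPM (log2 0.29, SE 0.18, adjusted p = 0.18). Cct5 lay at 351 and 447 against 534 and 424 CPM, the only overlapping groups among the 8 (log2 0.26, SE 0.20, adjusted p = 0.26). With library totals alone, under which all genes shifted up, the 3 had log2 fold changes of 0.71, 0.59 and 0.57 and passed. DESeq2 also called Cct2 (log2 0.44, adjusted p = 0.032). The CCT median per kilobase was 63.2 ± 9.31 CPM per kb (SD, n = 2) for naive and 127 ± 14.7 for Th17 cells.

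Because the subunits stand in equal number in the ring, their levels were set side by side per kilobase. Per kilobase of the union of annotated exons, Cct2 was the most abundant in all 4 libraries, followed by Cct5. Cct2 lay at 150.3 and 188 CPM per kb in naive and 248 and 202 in Th17 cells. Tcp1 ranked behind Cct4 and Cct6a in both naive libraries and ahead of both in both Th17 libraries. It stood at 0.834 and 0.788 of the CCT median in naive cells and at 1.11 and 1.14 in Th17 cells. The highest subunit exceeded the lowest by 4.5 and 4.45 times in naive and by 3.46 and 3.18 times in Th17 cells, so the spread among subunits was smaller in both Th17 libraries. At the low end, Cct3 and Cct7 differed by less than the spread between libraries in Th17 cells. With the longest transcript as gene length, the highest exceeded the lowest by 3.08 and 3.04 against 2.52 and 2.38 times. The union of exons is 2557 bases for Cct2, 5030 for Tcp1, 6370 for Cct3 and 6778 for Cct7. Their longest protein-coding transcripts have 1959, 2446, 1977 and 2441 bases. The ranks and the spread thus depend on the length taken, and levels per coding transcript were not computed. Cct6b, a form known from the testis, had 4 to 8 reads in a library and was not tested.

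**Figure D4:**
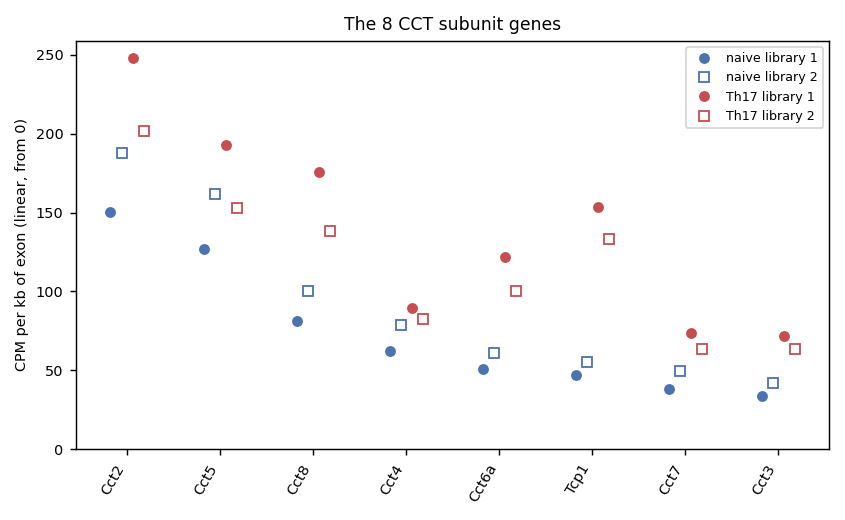
CPM per kb of exon for the 8 CCT subunit genes, on a linear axis from 0, in each naive (blue) and Th17 (red) library, ordered by naive level. Tcp1 moves from 47.2 and 55.0 to 153 and 133 CPM per kb, while Cct4, which was not called, lies at 62.2 and 78.4 in naive and 89.1 and 82.6 in Th17 cells.

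The DNAJ genes that were called split evenly, and the largest rise was of a gene with no naive read. Dnajc22, a membrane DNAJ protein, had 0 reads in both naive libraries and 59 and 107 reads, or 2.05 and 8.11 CPM, in the Th17 libraries. Against a floor of 3 reads in each library it was at least 27.4-fold higher. It entered the test only through its Th17 reads, so its adjusted p (0.0045) is no separate support. Without naive library 1 or naive library 2 it was not called. Th17 library 1 alone gives at least 11.1-fold and Th17 library 2 alone at least 43.8-fold. The medians given above are the same with Dnajc22 at this bound, which lies above them. Dnajc12, a partner of the aromatic amino acid hydroxylases, went from 3.08 and 3.73 to 12.0 and 23.8 CPM (log2 2.39, SE 0.37, adjusted p = 0.00078). It was not called without naive library 1 (adjusted p = 0.097) or 2 (adjusted p = 0.083). Dnajb3 had 0.265 and 0.422 against 1.42 and 0.985 CPM (log2 1.83, SE 0.66, adjusted p = 0.037), and 7 of the 10 alternatives lost the call, among them DESeq2 (adjusted p = 0.13) and the fits without naive library 1 (0.38), naive library 2 (0.25) or Th17 library 1 (0.19). All 3 genes were expressed at low levels. Dnajb3 too entered the test only through its Th17 reads, so its adjusted p is no separate support either.

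Dnajc21, which is known for its part in ribosome maturation, went from 38.8 and 43.4 to 102 and 86.7 CPM, 2.30-fold (log2 1.20, SE 0.16, adjusted p = 0.00023). Dnajc24, an enzyme partner in diphthamide synthesis, went from 10.9 and 10.2 to 17.3 and 14.7 CPM (log2 0.60, SE 0.21, adjusted p = 0.032). Dnajc2, the ribosome-bound DNAJ protein named here after its values were seen, went from 69.7 and 81.5 to 127 and 102 CPM (log2 0.60, SE 0.17, adjusted p = 0.014). In these genes the 2 groups did not overlap, as in 85% of all genes tested. Dnajc24, whose exons lie over Dcdc5, was not called without naive library 1 (adjusted p = 0.12), naive library 2 (0.16), Th17 library 1 (0.18) or the filter (0.079). Dnajc2 was not called without naive library 1 (adjusted p = 0.14), naive library 2 (0.082) or Th17 library 1 (0.12).

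Among the falls, Dnajc6 had the largest. It encodes auxilin, which uncoats clathrin vesicles with HSC70, and lay at 11.1 and 7.39 CPM in naive and 0.798 and 1.97 CPM in Th17 cells, 6.90-fold lower (log2 -2.79, SE 0.51, adjusted p = 0.0015). It was not called without naive library 1 (log2 -2.45, adjusted p = 0.12) or naive library 2 (log2 -3.08, adjusted p = 0.073), and its log2 fold change was -3.53 without Th17 library 2. Dnajc27, a Rab-like GTPase with a J domain, went from 25.5 and 23.7 to 8.36 and 6.74 CPM, 3.24-fold lower (log2 -1.69, SE 0.21, adjusted p = 0.00012). Dnajc7, which binds both HSP70 and HSP90, went from 295 and 329 to 164 and 156 CPM, 1.95-fold lower (log2 -0.96, SE 0.16, adjusted p = 0.00069), and its exons lie over those of Cnp and Nkiras2. For Dnajc27 and Dnajc7, as for Dnajc3, the call held under all 10 alternatives.

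Dnajb1, the heat-inducible HSP40 of the cytosol, lay at 126 and 160.0 CPM in naive and 78.9 and 87.2 CPM in Th17 cells, 1.72-fold lower (log2 -0.78, SE 0.17, adjusted p = 0.0035). Without naive library 2 it was not called (log2 -0.67, adjusted p = 0.051). Dnajb1 and Hspa1b, a J protein and an HSP70 that heat shock is known to induce together, were thus both lower. Hspa1a was not called, and the stress-inducible Hsp90aa1 was higher, as were Hspd1, Hspe1 and Hsph1, which held a match to the heat shock element. Only exact matches in short promoter windows were searched, so a member without a match may still hold such an element. Dnajc17, a protein of the splicing machinery, went from 16.0 and 16.2 to 9.12 and 7.88 CPM (log2 -0.92, SE 0.22, adjusted p = 0.0054), and its exons lie over Zfyve19 and it has a near-identical pseudogene. Dnajc4 went from 19.4 and 19.1 to 12.7 and 9.32 CPM (log2 -0.80, SE 0.22, adjusted p = 0.011), and Dnajc28 from 4.30 and 5.00 to 1.14 and 2.27 CPM (log2 -1.46, SE 0.49, adjusted p = 0.027). In each of these genes both naive libraries stood above both Th17 libraries, while 85% of all genes tested had groups without overlap. Dnajc17 was not called without naive library 1 (adjusted p = 0.059) or 2 (0.06), nor Dnajc4 without naive library 1 (0.1), naive library 2 (0.092) or TMM factors (0.071). Dnajc28 lost its call in 6 alternatives, without naive library 1 (adjusted p = 0.21), naive library 2 (0.26) or Th17 library 1 (0.057), and with the other filters or scaling.

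Dnajc14, an ER membrane member named after its values were seen, went from 129 and 140.1 to 99.4 and 86.6 CPM (log2 -0.53, SE 0.16, adjusted p = 0.014). Its exons lie over those of Ormdl2 and Tmem198b, and it was not called without naive library 2 (adjusted p = 0.057), Th17 library 2 (0.11) or TMM factors (0.14). The other 23 tested DNAJ genes were not called and had log2 fold changes from -0.41 to 0.64. All 4 DNAJA genes, the type that resembles bacterial DnaJ most closely, were among them, with log2 fold changes from -0.18 to 0.19 and overlapping groups. Of these, 0 passed an unadjusted p of 0.05 or DESeq2. With library totals alone, under which all genes shifted up, Dnaja2 (log2 0.48, adjusted p = 0.028) and Dnaja3 (log2 0.49, adjusted p = 0.021) were called higher.

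**Figure D5:**
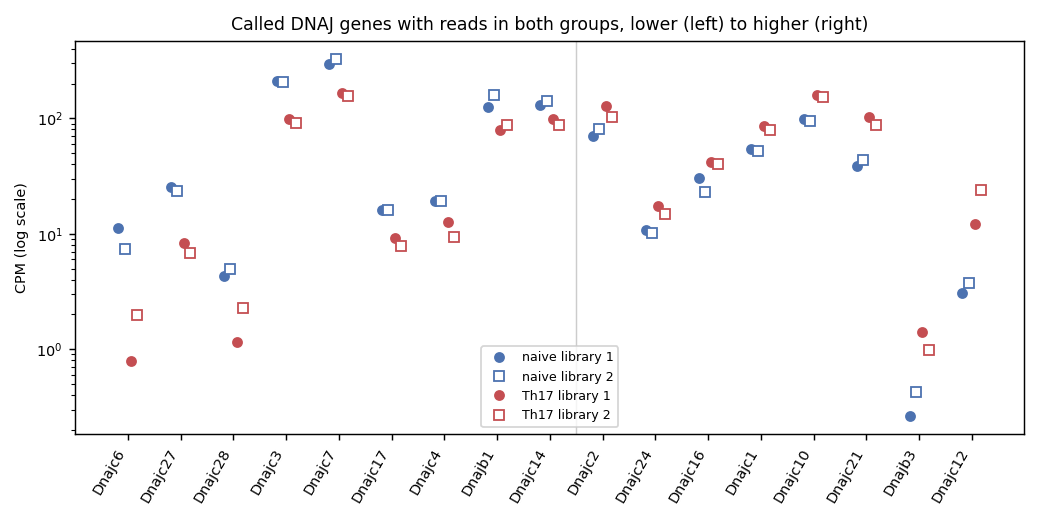
CPM on a log axis in each naive (blue) and Th17 (red) library for the called DNAJ genes with reads in both groups, ordered from the largest fall to the largest rise. Dnajc3 drops from 208 and 206 to 98.8 and 90.6 CPM, and Dnajc21 climbs from 38.8 and 43.4 to 102 and 86.7 CPM.

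The small HSP genes, whose products hold unfolded proteins without ATP, were expressed at low levels, at most 5.61 CPM in a library. Hspb1 had 3 and 4 naive reads and 26 and 7 Th17 reads, or 0.159 and 0.282 against 0.902 and 0.530 CPM, and was not called (log2 1.74, SE 0.78, adjusted p = 0.077). Hspb6, with exons over Lin37 and Proser3, lay at 4.03 and 4.01 against 5.48 and 5.61 CPM (log2 0.46, SE 0.35, adjusted p = 0.27). Hspb7, Hspb8 and Hspb9 were not tested, like Cct6b, Dnajc5b, Hspa12b and Hspa1l, and none of these 7 genes had more than 21 reads in a library. Hspa1l, the HSP70 gene next to Hspa1a, had 0 naive reads and 3 and 21 Th17 reads. A count of 3 reads corresponded to 0.159 and 0.211 CPM in the naive libraries and to 0.104 and 0.227 CPM in the Th17 libraries.

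The symbol rule also took genes that are not chaperones. Hspg2 encodes perlecan, a heparan sulfate proteoglycan of basement membranes, and had 2 and 1 naive reads against 39 and 145 Th17 reads, or 1.35 and 10.99 CPM. The ratio of its reads was 48.2 with a 95% counting interval of 16.2 to 236. Like Dnajc22, it entered the test only through its Th17 reads, so its adjusted p (0.018) is no separate support. Th17 library 1 alone gives a ratio of 14.9 (4.74 to 75.4) and Th17 library 2 alone 121 (40.6 to 594), so the size of the ratio rests on which library is read. The gene was not called without naive library 1 (adjusted p = 0.14) or 2 (adjusted p = 0.15). Hspbap1, a protein known to bind HSPB1, went from 40.2 and 40.8 to 30.5 and 23.3 CPM (log2 -0.58, SE 0.17, adjusted p = 0.016). Its exons lie over Gm26838. It was not called without naive library 1 (adjusted p = 0.11), naive library 2 (0.11), Th17 library 2 (0.11) or TMM factors (0.15). Hspb11, a part of the ciliary transport complex, was not called at 14.8 and 16.8 against 18.2 and 17.9 CPM (log2 0.19, SE 0.19, adjusted p = 0.38).

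The genes that work with the chaperones were read from 4 lists. Of 32 heat shock factors and co-chaperones of HSP70 and HSP90, 12 were higher (37.5%) and 10 lower (31.2%) with a median log2 fold change of 0.14, shares near the 34.3% and 30.7% of all genes. Hsf1, the master regulator of the heat shock response, went from 92.0 and 100 to 41.9 and 48.8 CPM (log2 -1.08, SE 0.16, adjusted p = 0.00038), while Hsf2, a related factor, went from 13 and 13.7 to 41.0 and 30.2 CPM (log2 1.42, SE 0.20, adjusted p = 0.00026). The co-chaperone Bag2, an inhibitor of client ubiquitination, had the largest rise of the list, from 1.33 and 0.915 to 22.1 and 20.99 CPM (log2 4.24, SE 0.29, adjusted p = 3.5e-06). Tomm34, which binds HSP70 and HSP90, went from 118 and 137 to 49.4 and 44.2 CPM (log2 -1.45, SE 0.16, adjusted p = 7.2e-05). Aarsd1 (log2 -1.67, SE 0.62, adjusted p = 0.039) lost its call in 9 of 10 alternatives, with an adjusted p of 0.43 without naive library 1, 0.18 without naive library 2, 0.068 without Th17 library 1 and 0.051 without Th17 library 2.

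Of 15 prefoldin and phosducin-like partners of CCT, 5 were higher (33.3%, near the 34.3% of all genes) and 2 lower (13.3%, against 30.7%) with a median log2 fold change of 0.22. Prefoldin, which hands actin and tubulin to CCT, did not move as a unit. Pfdn4 (11.7 and 13.4 against 34.7 and 27.6 CPM, log2 1.32, SE 0.19, adjusted p = 0.00035) and Pfdn1 (27.4 and 32.6 against 69.97 and 67.7 CPM, log2 1.20, SE 0.16, adjusted p = 0.00018) rose. Pfdn5 fell from 212 and 278 to 79.6 and 109 CPM (log2 -1.38, SE 0.21, adjusted p = 0.00062), and was not called without naive library 2 (adjusted p = 0.061). The tubulin cofactor Tbce had a log2 fold change of -0.69 (SE 0.16, adjusted p = 0.0042), not called without naive library 1 (adjusted p = 0.051) or TMM factors (0.056).

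Of 16 mitochondrial partners and proteases, 9 were higher (56.2%, against 34.3% of all genes) and 2 lower (12.5%, against 30.7%) with a median of 0.48. The protease Lonp1 went from 96.5 and 102 to 318 and 288 CPM (log2 1.61, SE 0.16, adjusted p = 3.2e-05). Timm23, the import channel that Hspa9 works at, had a log2 fold change of 1.07 (SE 0.18, adjusted p = 0.00086), not called without naive library 1 (adjusted p = 0.06) or 2 (0.053). Grpel2, an exchange factor of Hspa9, had -0.64 (SE 0.17, adjusted p = 0.0093), not called without naive library 1 (adjusted p = 0.086), naive library 2 (0.063) or TMM factors (0.095). The protease subunit Spg7 had -0.52 (SE 0.15, adjusted p = 0.013), not called without Th17 library 2 (adjusted p = 0.059) or TMM factors (0.16).

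Of 28 tested genes of ER folding and the unfolded protein response, 17 were higher (60.7%, against 34.3% of all genes) and 2 lower (7.14%, against 30.7%) with a median of 0.64. Ero1l, the oxidase that feeds disulfide formation, went from 32.8 and 34.0 to 556 and 427 CPM (log2 3.88, SE 0.20, adjusted p = 7.5e-07). Atf6, the sensor whose cleaved form binds the ER stress element, went from 18.6 and 13.2 to 104 and 94.5 CPM (log2 2.64, SE 0.20, adjusted p = 6.6e-06). The related oxidase Ero1lb went down, from 23.2 and 22.0 to 13.3 and 12.9 CPM (log2 -0.79, SE 0.18, adjusted p = 0.0043). Uggt1, the folding sensor of glycoproteins, had a log2 fold change of -0.73 (SE 0.19, adjusted p = 0.0086), not called without naive library 1 (adjusted p = 0.056) or TMM factors (0.11).

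Markers of the labelled cells and of other cell types were read beside these values. The 6 naive CD4 T cell markers summed to 5030 and 5370 CPM in naive and 1500 and 1370 CPM in Th17 cells, and the 6 Th17 markers to 7.27 and 5.07 against 3680 and 3460 CPM, with Il17a at 0 reads in naive cells. Myeloid markers, 10 of 11 measured, summed to 26.0 and 23.7 against 73.2 and 75.9 CPM, Cd74 the highest, with none at 0 in either group. CD8 and NK markers, 9 of 9 measured, summed to 101 and 115 against 55.0 and 53.3 CPM, with none at 0. B cell markers, 7 of 8 measured, stayed between 0.624 and 3.17 CPM, with Ms4a1 at 0 in naive and Blk at 0 in Th17 cells. The part of other cells in the chaperone values was not tested. The log2 CPM of all tested genes correlated less between the Th17 libraries (r = 0.959) than between the naive libraries (r = 0.99), across genes, which are not independent replicates.

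Edited sites were listed in Dnajb12, Dnajc1 and Hspa4l, all of them in 3′ UTRs. Of 869 sites listed for naive and Th17 cells, 3 (0.345%) were in members, which make up 0.491% of the genes in the count table. Dnajb12, an ER membrane DNAJ gene, had a site at position 59897978 of chromosome 10 with 42.9% and 33.3% of reads edited in the naive libraries and no level listed for Th17 cells. Dnajc1 had sites at 18214657 of chromosome 2, with 30.8% and 20.0% in the Th17 libraries, and at 18214729, with 15.4% and 20.0%, and no level listed for naive cells. The deposited coverage at both Dnajc1 sites was 10 reads, that of Th17 library 2, and the depth of the naive libraries there is unknown.

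Of 355 sites listed for wild-type and DDX5-deficient Th17 cells, 4 (1.13%) were in members, 3 of them in the same gene. Dnajc1 had 3 other sites on chromosome 2, between 18215363 and 18215394. The site at 18215363 had 35.3% and 50% in the wild-type libraries and 15.4% in DDX5-deficient library 1, and that at 18215374 had 17.6% and 50% against 6.25% in the same library. The third, at 18215394, had 20.0% and 28.6% against 11.1% in DDX5-deficient library 2. Hspa4l had a site at 40794262 of chromosome 3 with 13% and 36.4% in the wild-type libraries and no level listed for DDX5-deficient cells. Coverage in wild-type library 2 was 6, 6, 7 and 11 reads, and the depth of the other libraries is unknown. The listing required a level in both wild-type libraries and not in the DDX5-deficient ones, and the difference was not tested.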

How the data were processed

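RNA counts per gene of 2 naive and 2 Th17 libraries were taken as the authors deposited them, unnormalised, in the columns called original per the file headers. The submitters' processing notes name the mm10 build, with STAR 2.6.1a, featureCounts and DESeq2 1.18.1. Use of strand and of multiply mapped reads is not given in the sources used here. The editing tables, made with SAILOR per the labels, gave the deposited fraction of edited reads per site and library, printed as percent, and a deposited coverage for library 2 of the Th17 or wild-type cells only.

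Of 16308 genes, 16295 matched GENCODE M21 (same build) by identifier, among them all 80 members. edgeR 4.0.16 in R 4.3.3 was run on the whole count table (filterByExpr, TMM, robust quasi-likelihood fit on group alone), with Benjamini-Hochberg adjustment over the 11989 genes tested and calls at an adjusted p under 0.05. It was checked on simulated counts. A gene could enter the test with enough reads in a single group, as Dnajc22, Hspg2, Hspa2 and Dnajb3 did through Th17 reads. CPM used TMM-scaled library sizes, and levels between genes were divided by the union of exons. The p-values rest on the spread between 2 libraries a group, drawn for each gene towards a trend over all genes tested. Where a library was left out, the group with 1 library had no spread of its own. Intervals and floors cover counting error only, as PCR duplicates cannot be told from separate molecules here. Copies were searched with megablast among M21 transcripts, and promoter windows came from RefSeq (GRCm38.p6). Classes and compartments were assigned from general knowledge. All tested HSP and CCT genes were described, except for a member that, like a list of markers, is not reported here, with the 8 largest called rises and falls among DNAJ genes, and Hsf1, Hsf2 and the 2 largest called rises and falls of each partner list. Members, lists and the naming rule were chosen with earlier results of these data known. The alternatives were DESeq2 1.42.0, its size factors or library totals in edgeR, 2 other filters (at least 1 read, or a mean normalized count of at least 10), a replicate block, leaving out each library, another gene length, and sites by name or by position.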

Additional observations from a re-analysis of the deposited data

How the results depend on the processing

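Of the 38 called members, 19 kept their call in all 10 alternatives and 19 lost it in at least 1, while 21 others gained one in at least 1, and no called member changed direction. How many calls over all genes held in the same way was not computed. Library totals alone gave 44 members higher and 7 lower, and 5186 and 2619 of all genes, since this scaling moved all genes up. Leaving out 1 library at a time gave 17 to 27 members higher and 5 to 12 lower, and 2380 to 4847 higher and 2567 to 3672 lower over all genes. The low ends came without a naive library, where fewer samples are left and the lone one is assumed to vary like the Th17 libraries. DESeq2 gave 27 and 12 members, its size factors 28 and 11, no filter 24 and 10, and the minimum mean count 25 and 10. Over all genes these fits called 4186 higher and 3508 lower, 4221 and 3587, 3554 and 3311, and 3564 and 3334, in that order. They tested 11989, 11989, 16308 and 12491 genes.

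The replicate block gave 26 members higher and 12 lower, and 4094 higher and 3644 lower over all 11989 genes tested. It lost Dnajb3 (adjusted p = 0.092) and gained Hspa12a (log2 -2.73, adjusted p = 0.047). Libraries with the same number share no stated animal or day, and their deviations correlated at -0.081 across genes, so the numbers were not taken as pairs. In the sample descriptions both libraries 2 carry a shared identifier and libraries 1 do not.

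With the longest transcript as gene length, Hspa8 over Hspa5 was 5.54 in naive and 1.63 in Th17 cells, Hspa5 over Hsp90b1 was 1.11 and 1.08, and Tcp1 over the CCT median was 0.754 and 1.16. The CCT median was then 100 and 183 CPM per kb. Sites taken by name or by position in the gene were the same in number, 3 and 4. Depth limits genes near 3 reads a library.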
